A study of Mus musculus with 9 samples.

Results

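The 36 genes described here encode the machinery that takes up glucose and burns it in the cytosol: hexose transporters and hexokinases, the enzymes of glycolysis, lactate and pyruvate handling, 4 enzymes of the pentose phosphate pathway, and 4 genes that regulate or report on glucose supply. They were taken as a list of gene symbols, set with earlier results of these data known, and all 36 were found among the 23951 gene symbols of the expression table. Their RNA was followed in mast cells cultured from bone marrow (BMMCs) of wild type C57BL/6 mice, by RNA sequencing, with 3 libraries in each of 3 groups. Antigen libraries came from cells loaded for 18 h with 0.5 µg/ml of an IgE that binds the hapten DNP and then given 50 ng/ml of DNP-BSA, the antigen that crosslinks that IgE, for 2 h. IgE libraries came from cells given the same IgE for 18 h without antigen, and untreated libraries from cells given neither. The labels do not say whether IgE and antigen cells were harvested at the same time, and the groups are not a time course. All 3 groups were grown in 10 ng/ml each of IL-3 and SCF for 4 to 6 weeks, and more than 95% of the cells were positive for CD117 and the IgE receptor per the labels, which give neither the number of mice nor whether cultures were pooled. Values are FPKM, the authors' read counts per gene scaled to transcript length and to the mapped reads of the library.

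FPKM carry no read totals, and the depth was estimated from the steps between low values, at 20.8 to 28.5 M reads in antigen, 31.9 to 39.6 M in IgE and 29.8 to 33.4 M in untreated libraries, so that the coefficient of variation from counting alone reaches 15.5% at 1 FPKM and 4.9% at 10 FPKM for a transcript of 2 kb. Antigen replicate 3 had 0 for each of the 437 chromosome X genes that had values in all of the other 8 libraries, and Pgk1, Pdk3 and G6pdx therefore have 2 antigen values each. IgE replicate 3 stood farthest from its own group, with an SD of log2 differences of 0.175, against 0.0987 to 0.122 in the other libraries. The mast cell markers Kit and Fcer1a were high in every library (395 to 497 and 4660 to 6093 FPKM), while the granule proteases Cpa3 and Cma1 were listed at 0 in all 9. The 10 mast cell markers summed to 15085 to 15468 FPKM in antigen, 13876 to 14670 in IgE and 14725 to 15416 in untreated libraries. The 3 basophil markers summed to 553 to 574 FPKM in antigen, 423 to 477 in IgE and 507 to 545 in untreated libraries, and the 5 macrophage markers found to 13.3 to 14.4 FPKM in antigen, 13.0 to 13.6 in IgE and 17.4 to 18.6 in untreated libraries. Members of each sum went opposite ways: with antigen Hdc averaged 895 FPKM, against 28.7 with IgE, and Ms4a2 averaged 626, against 1080. Cd200r3 averaged 492 FPKM with antigen, against 344 with IgE, and Prss34 averaged 54.7, against 92.1. Cd14 averaged 3.45 FPKM with antigen, against 0.714 with IgE, and Emr1 averaged 7.75, against 9.36. Neutrophil, erythroid, lymphoid and stromal markers summed to at most 2.35 FPKM each. The part of these markers in the results was not tested, and in bulk RNA fewer cells of a type and less RNA per cell cannot be told apart.

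Glucose enters cells through transporters of the GLUT family and is trapped by hexokinases, which phosphorylate it. Glycolysis then splits the sugar and yields ATP, NADH and pyruvate. Pyruvate becomes lactate, which leaves through monocarboxylate transporters, or enters mitochondria unless pyruvate dehydrogenase kinases block that step. The pentose phosphate pathway branches off early and makes NADPH and ribose. Mast cells are known to turn to glycolysis when their IgE receptors are crosslinked, and release of granules and cytokines needs it.

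Antigen moved the members in both directions. As deposited, all 6 members of lower glycolysis rose, but only Eno2 and Pgam1 kept the call under every scaling. Gapdh and Pkm turned after quantile normalization, and Eno1 and Pgk1 lost the call there (limma adjusted p = 0.255 and 0.0634). Several isozymes and regulators of uptake and of the upper steps fell. Others rose: upper glycolysis had 5 members higher and 4 lower, and Slc2a3 and Slc2a6 rose while Slc2a1 fell. The largest rise was that of Eno2, the enolase typical of neurons, at 11.7 times its IgE level. Eno2 reached the filter of 1 FPKM in the 3 antigen libraries and in no other, so it was tested only because it was high there. The next were Arrdc4, an arrestin relative that lowers glucose uptake, at 5.31 times, and Pfkfb3, which makes the activator of phosphofructokinase, at 3.10 times. The largest falls were in the phosphofructokinase subunits Pfkm and Pfkl and in Pfkfb4. In antigen versus IgE, 20 of the 35 tested members were higher and 13 lower (limma on log2(FPKM + 1), Benjamini-Hochberg adjusted p under 0.05), beside 37.6% and 36.2% of all 10890 tested genes, so a call by itself says little here, since 73.8% of all genes had one. The median log2 change of the members was 0.14, beside 0.01 for all tested genes. Values in antigen and IgE libraries did not overlap in 34 of the 35 members (97.1%, beside 75.3% of all tested genes). On the log2(FPKM + 1) scale, 14.6% of all genes had called changes of at least 1.5-fold upwards and 11.7% downwards (26.3% in all). Such changes were seen in 5 members upwards (Eno2, Arrdc4, Pfkfb3, Pgam1 and Aldoa) and in 3 downwards (Pfkm, Pfkfb4 and Pfkl). By the ratio of mean FPKM, Hk3, Pdk2, Pdk1 and Bnip3 also passed 1.5-fold downwards, at 0.527, 0.594, 0.631 and 0.666 times the IgE level. Eno2 is counted among the 20 higher and the 5 rises of at least 1.5-fold although the filter fixed its direction. Hk3, which no antigen library has at 1 FPKM, is counted among the 13 lower and not among the 3 falls on the log2(FPKM + 1) scale.

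The smaller rises depended on how the libraries were scaled to each other. In a setting added after seeing the data, every library was set to the same FPKM total, summed over autosomal genes above 0 in all 9 libraries. The median of all genes then moved by -0.16 on the log2 scale, and the share of calls that were higher went to 33.2%, against 50.9% as deposited. With these equal FPKM totals the members numbered 13 higher and 14 lower, and after quantile normalization 9 higher and 20 lower. The changes of Eno2, Arrdc4, Pfkfb3, Pgam1, Aldoa, Pfkm, Pfkl and Pfkfb4 kept their direction and their call under all 4 scalings tried. For Eno2 this adds nothing, since the filter was applied before scaling and had fixed its direction. Of the FPKM summed over those same autosomal genes, the 32 autosomal tested members together made up 0.923, 0.913 and 0.953% in antigen libraries, 0.854, 0.855 and 0.880% in IgE libraries and 0.854, 0.825 and 0.814% in untreated libraries.

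IgE alone moved fewer members and by less: 14 were higher and 5 lower than in untreated cells, beside 15.9% and 14.2% of all tested genes (30.1% in either direction). Of the rises, 4 were in lower glycolysis, 3 in lactate handling and 4 in the pentose phosphate pathway, where all 4 members rose, and the others were those of Tpi1, Hk1 and Pfkl. The largest falls were in Txnip, Arrdc4 and Slc2a1, 3 genes of glucose uptake and its control. The median log2 change of the members was 0.07, beside -0.01 for all tested genes. On the log2(FPKM + 1) scale, 2 members, Txnip and Arrdc4, fell and 0 rose at least 1.5-fold, beside 0.349% and 1.18% of all genes (1.53% in either direction). By the ratio of mean FPKM, Slc16a1 stood at 1.62 times its untreated level. With equal FPKM totals, 10 members were higher and 6 lower, and the calls of Hk1, Pfkl, Slc16a3 and G6pdx were lost. Antigen versus untreated sets both treatments together against neither, with 21 members higher and 11 lower, beside 38.7% and 35.6% of all genes (74.3% in either direction) and a median of 0.38, beside 0.02 for all genes. These counts became 18 and 14 with equal FPKM totals and 14 and 16 after quantile normalization. In antigen versus untreated as deposited, 11 members were at least 1.5-fold higher on the log2(FPKM + 1) scale, beside 15.0% of all genes, among them Slc16a1, Pgk1 and Ldha. On that scale 8 were at least 1.5-fold lower, beside 12.1%, among them Txnip, Slc2a1 and Bnip3 (27.1% of all genes in either direction). The 3 comparisons share libraries in pairs, so that an error in the IgE libraries moves the antigen and the IgE step in opposite directions.

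**Figure D1:**
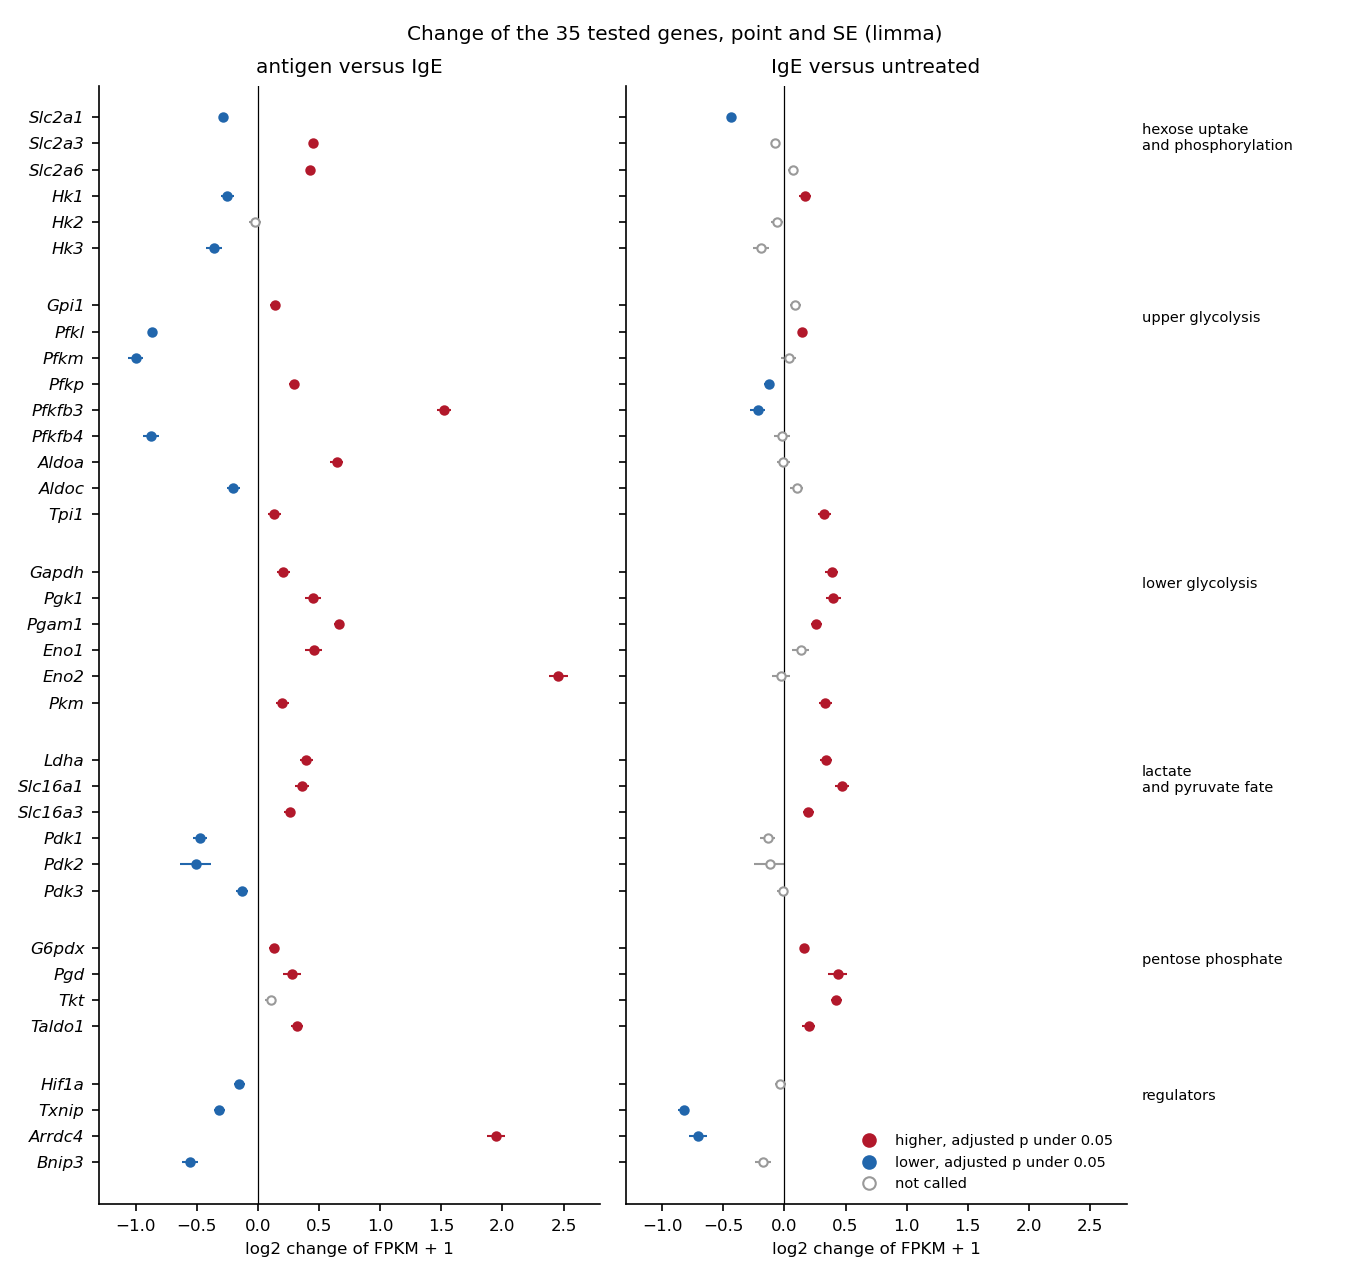
Log2 change (log2(FPKM + 1) scale) of each of the 35 tested members in antigen versus IgE (left) and IgE versus untreated libraries (right), ordered by role. Points are limma estimates with their SE as bars, filled red where higher and blue where lower at an adjusted p under 0.05: Eno2, Arrdc4 and Pfkfb3 stand out to the right in the antigen panel, and Txnip and Arrdc4 to the left in the IgE panel.

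Among the regulators, Txnip and Arrdc4 went apart under antigen after falling together under IgE. Both encode alpha-arrestins that reduce glucose uptake by removing transporters from the cell surface, and both are known targets of MondoA, a transcription factor that senses hexose phosphates. Txnip had 208, 205 and 210.2 FPKM in antigen libraries, 264, 263 and 251 FPKM in IgE libraries and 468, 437 and 476 FPKM in untreated libraries. Its values fell in 2 steps without overlap, with the lowest in the antigen libraries. It fell at the antigen step (log2 -0.32, SE 0.0450, limma adjusted p = 8.68e-05) and at the IgE step (log2 -0.83, SE 0.0450, limma adjusted p = 5.53e-06), and all scalings kept both calls. Arrdc4 had 10.3, 10.3 and 10.4 FPKM in antigen libraries, 1.57, 2.20 and 2.05 FPKM in IgE libraries and 3.89, 3.74 and 3.72 FPKM in untreated libraries. It was lowest with IgE alone and highest with antigen, and no 2 groups overlapped. It fell at the IgE step (log2 -0.71, SE 0.0751, limma adjusted p = 0.000151) and rose at the antigen step (log2 1.95, SE 0.0751, limma adjusted p = 3.56e-09), to 2.72 times the untreated level. Of the FPKM of both arrestins, Txnip held 95.3, 95.2 and 95.3% in antigen libraries, 99.4, 99.2 and 99.2% in IgE libraries and 99.2, 99.2 and 99.2% in untreated libraries.

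Hif1a, the oxygen-regulated factor that drives glycolytic genes, had 77.7, 73.7 and 73.2 FPKM in antigen libraries, 85.9, 86.2 and 78.4 FPKM in IgE libraries and 87.0, 84.5 and 85.0 FPKM in untreated libraries. It was slightly lower in every antigen library (log2 -0.15, SE 0.0454, limma adjusted p = 0.0105), and its IgE and untreated values overlapped (log2 -0.04, limma adjusted p = 0.593). Bnip3, a mitophagy receptor and a classical HIF target, had 15.4, 15.8 and 16.7 FPKM in antigen libraries, 25.1, 25.1 and 21.6 FPKM in IgE libraries and 25.8, 28.9 and 26.9 FPKM in untreated libraries. It fell with antigen (log2 -0.55, SE 0.0647, limma adjusted p = 2.08e-05), in the libraries in which Pgam1 and Aldoa, known HIF targets too, rose. The IgE step of Bnip3 did not pass the test (log2 -0.18, limma adjusted p = 0.0623).

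The promoters of these genes are shown because the letters bound by the factors above can be read in them. They are the 250 bases before the transcription start from RefSeq on GRCm38.p6, not the mm9 build of the reads, 5′ to 3′ along the gene, and 35 of the 36 members had at least 1 such window (50 windows in all). In the first sequence, of Txnip (chr3:96557707-96557956, plus strand), capitals mark 2 CACGNG boxes 5 bases apart, the spacing of a carbohydrate response element. In Arrdc4 (chr7:68749239-68749488, minus strand) they mark the E-box CACGTG.
Txnip: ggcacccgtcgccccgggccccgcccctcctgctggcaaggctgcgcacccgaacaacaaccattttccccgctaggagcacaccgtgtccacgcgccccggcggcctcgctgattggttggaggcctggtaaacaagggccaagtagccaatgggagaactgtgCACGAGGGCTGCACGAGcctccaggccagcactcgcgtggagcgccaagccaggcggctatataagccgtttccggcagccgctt
Arrdc4: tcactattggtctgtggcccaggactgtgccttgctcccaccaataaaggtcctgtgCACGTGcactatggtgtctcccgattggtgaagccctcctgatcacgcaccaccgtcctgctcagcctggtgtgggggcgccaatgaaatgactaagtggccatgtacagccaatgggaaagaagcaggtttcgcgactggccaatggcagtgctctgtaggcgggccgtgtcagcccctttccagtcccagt
The next 3 genes hold ACGTG, the core of the hypoxia response element, marked in capitals on either strand: Ldha (chr7:46845554-46845803, plus strand), which rose with antigen, and Bnip3 (chr7:138909507-138909756, minus strand) and Slc2a1 (chr4:119108495-119108744, plus strand), which fell.
Ldha: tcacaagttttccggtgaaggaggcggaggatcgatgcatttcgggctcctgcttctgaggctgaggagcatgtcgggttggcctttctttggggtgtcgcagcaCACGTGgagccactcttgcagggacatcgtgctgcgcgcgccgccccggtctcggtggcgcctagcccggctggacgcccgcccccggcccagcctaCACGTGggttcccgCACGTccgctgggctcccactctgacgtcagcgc
Bnip3: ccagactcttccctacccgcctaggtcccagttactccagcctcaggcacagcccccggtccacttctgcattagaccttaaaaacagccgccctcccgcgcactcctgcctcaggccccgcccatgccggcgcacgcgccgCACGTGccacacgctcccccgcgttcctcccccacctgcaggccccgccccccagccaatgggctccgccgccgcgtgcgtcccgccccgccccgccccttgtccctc
Slc2a1: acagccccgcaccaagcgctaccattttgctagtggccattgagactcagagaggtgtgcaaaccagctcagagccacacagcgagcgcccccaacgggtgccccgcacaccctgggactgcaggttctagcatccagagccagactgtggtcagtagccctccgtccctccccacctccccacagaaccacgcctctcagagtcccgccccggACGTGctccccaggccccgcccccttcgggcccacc
Eno2 (chr6:124769674-124769923, minus strand), the member with the largest rise, holds no ACGTG in this window, and capitals mark GGAAA, the NFAT core, here on the minus strand as TTTCC.
Eno2: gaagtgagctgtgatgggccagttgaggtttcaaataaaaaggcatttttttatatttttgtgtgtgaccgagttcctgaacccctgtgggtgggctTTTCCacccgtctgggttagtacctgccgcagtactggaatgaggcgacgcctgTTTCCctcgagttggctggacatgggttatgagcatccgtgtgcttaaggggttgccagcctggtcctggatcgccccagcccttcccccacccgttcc

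The pair of CACGNG boxes 5 bases apart, searched after the Txnip window had been read, lay 85 to 69 bases before the Txnip start and was held by 15 of all 32851 windows of that length (0.0457%) and by no other member. CACGTG, which contains ACGTG, was found on either strand in 16% of the member windows and in 6.02% of all windows. ACGTG was found in 40% of member windows and in 16.6% of all windows. ACGTG was held by 9 of the 19 members with a window that rose in antigen versus IgE as deposited, and by 7 of the 13 that fell. The 19 include Eno2, without the motif, and the 7 include Hk3, both tested only through groups where they were high. A part of the motif in these directions was not tested. TGANTCA, the AP-1 site, was in 2% of member and 6.75% of all windows, GGAAA in 46% and 55.6%, and a loose NF-kB form, GGG and CC 5 bases apart, in 66% and 45.8%. These matches describe letters only, and binding was not measured.

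The 3 hexose transporters did not move together. Slc2a1 encodes GLUT1, the transporter of basal glucose uptake, Slc2a3 encodes the high-affinity GLUT3, and Slc2a6 encodes GLUT6, an intracellular transporter of myeloid cells. Slc2a1 had 30.6, 30.4 and 31.0 FPKM in antigen libraries, 36.7, 36.8 and 39.2 FPKM in IgE libraries and 51.4, 51.8 and 50.3 FPKM in untreated libraries. It fell at both steps without overlap (log2 -0.28, SE 0.0372, limma adjusted p = 4.94e-05 for antigen versus IgE, and log2 -0.44, SE 0.0372, limma adjusted p = 6.03e-05 for IgE versus untreated), and stood at 0.599 times its untreated level with antigen. Slc2a3 had 55.3, 55.8 and 57.9 FPKM in antigen libraries, 40.3, 41.2 and 41.3 FPKM in IgE libraries and 42.8, 43.5 and 43.2 FPKM in untreated libraries. Slc2a6 had 72.5, 74.2 and 73.2 FPKM in antigen libraries, 53.6, 54.5 and 54.6 FPKM in IgE libraries and 49.6, 52.4 and 53.1 FPKM in untreated libraries. Both rose with antigen (log2 0.45, SE 0.0338, limma adjusted p = 6.34e-07 for Slc2a3, and log2 0.43, SE 0.0364, limma adjusted p = 1.69e-06 for Slc2a6) and did not pass the test with IgE alone (limma adjusted p = 0.119 and 0.183). The antigen calls of all 3 transporters held under every scaling tried.

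As a share of the summed FPKM of the 3 transporters, Slc2a1 had 19.3, 18.9 and 19.1% in antigen libraries, 28.1, 27.8 and 29.0% in IgE libraries and 35.7, 35.1 and 34.3% in untreated libraries. The exact permutation p of 3 against 3 libraries was 0.1 for both steps, the smallest this design allows. The sum itself was 158 to 162 FPKM in antigen, 131 to 135 in IgE and 144 to 148 in untreated libraries. As deposited, the sum of these 3 was thus lowest with IgE alone. It was not taken under the other scalings. The FPKM totals of autosomal genes above 0 in all libraries were larger in antigen (525567 to 548403) than in IgE libraries (455086 to 489029). Which share of these proteins sits at the cell surface was not measured.

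**Figure D2:**
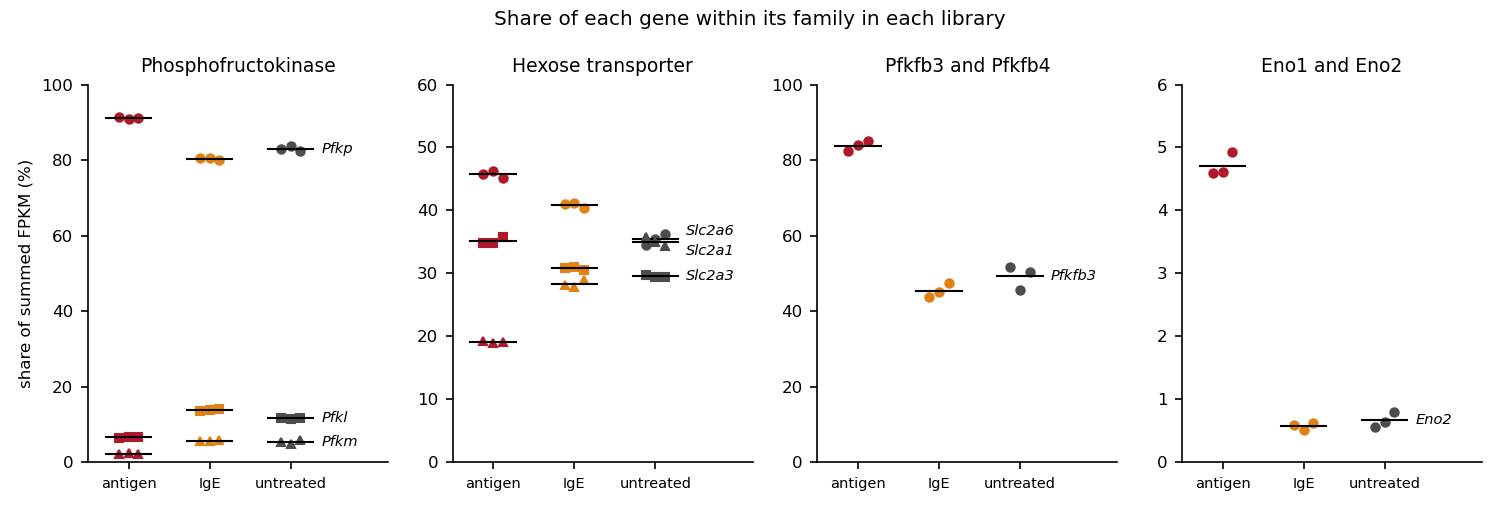
Share of each isoform in the summed FPKM of its family (%), for hexose transporters, phosphofructokinases, the 2 PFKFB enzymes and the 2 enolases, with 1 point per library and lines at the group means (antigen, IgE and untreated from left to right), and only Pfkfb3 and Eno2 drawn for the pairs. Slc2a1 is the lowest of the transporters in every IgE library and lower still with antigen, Pfkp has 90.8 to 91.4% of its family there, and Pfkfb3 has 82.4 to 85.1% of its pair with antigen, above every other library.

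Hexokinase RNA was mostly Hk1, the mitochondria-bound form, which held 91.3 to 91.6% of the 3 hexokinases in antigen, 92.0 to 92.5% in IgE and 90.6 to 91.1% in untreated libraries. Hk1 had 119.5, 120.3 and 118 FPKM in antigen libraries, 138, 135 and 155 FPKM in IgE libraries and 131, 124 and 126 FPKM in untreated libraries. It fell with antigen (log2 -0.25, SE 0.0517, limma adjusted p = 0.00130); IgE replicate 3 was the highest of all libraries. Its rise with IgE alone (log2 0.17, SE 0.0517, limma adjusted p = 0.0341) did not pass the test when any 1 untreated library, antigen replicate 1 or antigen replicate 2 was left out (limma adjusted p = 0.0501 to 0.0965), and was 0.11 on the log2 scale without IgE replicate 3. Hk2, the inducible form, was at 10.4 to 11.0 FPKM in antigen, 10.3 to 11.7 in IgE and 11.2 to 11.8 in untreated libraries, and passed in neither step (limma adjusted p = 0.629 and 0.382). Its antigen values lay below all untreated ones, and it was called lower with equal FPKM totals in antigen versus IgE (log2 -0.20, limma adjusted p = 0.0251) and, in antigen versus untreated, after median centring, quantile normalization and equal totals (log2 -0.14, -0.12 and -0.29, limma adjusted p = 0.0292, 0.0438 and 0.00268). Hk3, a low-level myeloid form, had 0.483, 0.497 and 0.416 FPKM in antigen libraries, 1.01, 0.810 and 0.834 FPKM in IgE libraries and 1.29, 1.06 and 1.11 FPKM in untreated libraries. It was lower with antigen (log2 -0.36, SE 0.0689), which on this scale understates a ratio of means of 0.527. Hk3 reached the filter of 1 FPKM only in the untreated libraries and IgE replicate 1, so it was tested only because it was high outside the antigen group. Its adjusted p is therefore not given, and its call was kept in the fit with no filter.

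In upper glycolysis, the isoforms of the committed step did not move together with antigen. Phosphofructokinase is built from Pfkp, Pfkl and Pfkm, the platelet, liver and muscle types, and is switched on by fructose-2,6-bisphosphate, the product of the PFKFB enzymes. Pfkp had 125, 118 and 118 FPKM in antigen libraries, 99.7, 100.05 and 93.9 FPKM in IgE libraries and 107, 109 and 105 FPKM in untreated libraries. Its rise with antigen (log2 0.30, SE 0.0416, limma adjusted p = 8.20e-05) became -0.01 after quantile normalization. Pfkl had 8.81, 8.85 and 8.71 FPKM in antigen libraries, 16.8, 17.0 and 16.6 FPKM in IgE libraries and 15.2, 15.1 and 15.0 FPKM in untreated libraries. Pfkm had 2.98, 3.19 and 2.90 FPKM in antigen libraries, 7.16, 6.93 and 7.03 FPKM in IgE libraries and 6.83, 6.28 and 7.50 FPKM in untreated libraries. Both fell with antigen in every scaling, Pfkl to 0.523 times (log2 -0.86, SE 0.0360, limma adjusted p = 6.65e-09) and Pfkm to 0.429 times the IgE mean (log2 -1.0, SE 0.0618, limma adjusted p = 1.41e-07). Pfkp thus held 91.4, 90.8 and 91.0% in antigen libraries, 80.6, 80.7 and 79.9% in IgE libraries and 82.9, 83.6 and 82.3% in untreated libraries, a share that 1 scaling factor per library cannot change, with an exact permutation p of 0.1 at each step, the smallest possible.

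With IgE alone, Pfkl was slightly higher (log2 0.14, limma adjusted p = 0.0138) and Pfkp slightly lower (log2 -0.13, limma adjusted p = 0.0420), and neither call was firm. That of Pfkl was lost without untreated replicate 3 or IgE replicate 2 (limma adjusted p = 0.0515 and 0.0536). That of Pfkp was lost without any 1 of 8 libraries, the exception being antigen replicate 1 (limma adjusted p = 0.0564 to 0.115). Pfkm did not pass (limma adjusted p = 0.715).

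Pfkfb3, which favours synthesis of the activator and is strongly inducible, had 23.7, 25.4 and 26.8 FPKM in antigen libraries, 7.71, 7.96 and 8.81 FPKM in IgE libraries and 9.55, 9.26 and 10.1 FPKM in untreated libraries. Pfkfb4, its relative with a more balanced kinase and phosphatase activity, had 5.09, 4.85 and 4.69 FPKM in antigen libraries, 9.90, 9.68 and 9.72 FPKM in IgE libraries and 8.91, 11.0 and 9.95 FPKM in untreated libraries. Antigen raised Pfkfb3 (log2 1.52, SE 0.0605, limma adjusted p = 4.54e-09) and lowered Pfkfb4 (log2 -0.87, SE 0.0666, limma adjusted p = 7.32e-07), and the antigen values of neither gene overlapped any other library. Of the FPKM of the pair, Pfkfb3 held 82.4, 84.0 and 85.1% in antigen libraries, 43.8, 45.1 and 47.5% in IgE libraries and 51.7, 45.6 and 50.4% in untreated libraries. The IgE and untreated shares overlapped. A small fall of Pfkfb3 with IgE alone (log2 -0.22, limma adjusted p = 0.0219) was lost without untreated replicate 1 or 3 or without IgE replicate 1 or 2 (limma adjusted p = 0.056 to 0.085), and Pfkfb4 did not pass (limma adjusted p = 0.828).

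Aldoa, the main aldolase and the most abundant member, had 1207, 1154 and 1205 FPKM in antigen libraries, 744, 791 and 749 FPKM in IgE libraries and 777, 732 and 787 FPKM in untreated libraries. It rose with antigen (log2 0.64, SE 0.0534, limma adjusted p = 1.43e-06) and was level between IgE and untreated libraries (log2 -0.01, limma adjusted p = 0.925). Aldoc, the brain-type aldolase, was at 26.9 to 28.3 FPKM in antigen, 30.4 to 34.5 in IgE and 28.7 to 30.8 in untreated libraries, and fell slightly with antigen (log2 -0.20, limma adjusted p = 0.00467), so the 2 aldolases went opposite ways. Gpi1, glucose-6-phosphate isomerase, was at 197 to 207 FPKM in antigen, 179 to 188 in IgE and 164 to 178 in untreated libraries. Its small rise (log2 0.14, limma adjusted p = 0.0152) was lost without IgE replicate 1 or antigen replicate 1 (limma adjusted p = 0.0569 and 0.0549) and turned to -0.17 after quantile normalization and -0.04 with equal totals. Tpi1, triose-phosphate isomerase, was at 188 to 201 FPKM in antigen, 162 to 187 in IgE and 137 to 142 in untreated libraries. Its step with antigen (log2 0.13, limma adjusted p = 0.0441) was lost when any 1 library except IgE replicate 2 was left out (limma adjusted p = 0.056 to 0.153, and log2 0.08 without IgE replicate 3) and turned to -0.19 after quantile normalization, while its rise with IgE alone (log2 0.33, SE 0.0537, limma adjusted p = 0.00171) held in all settings.

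**Figure D3:**
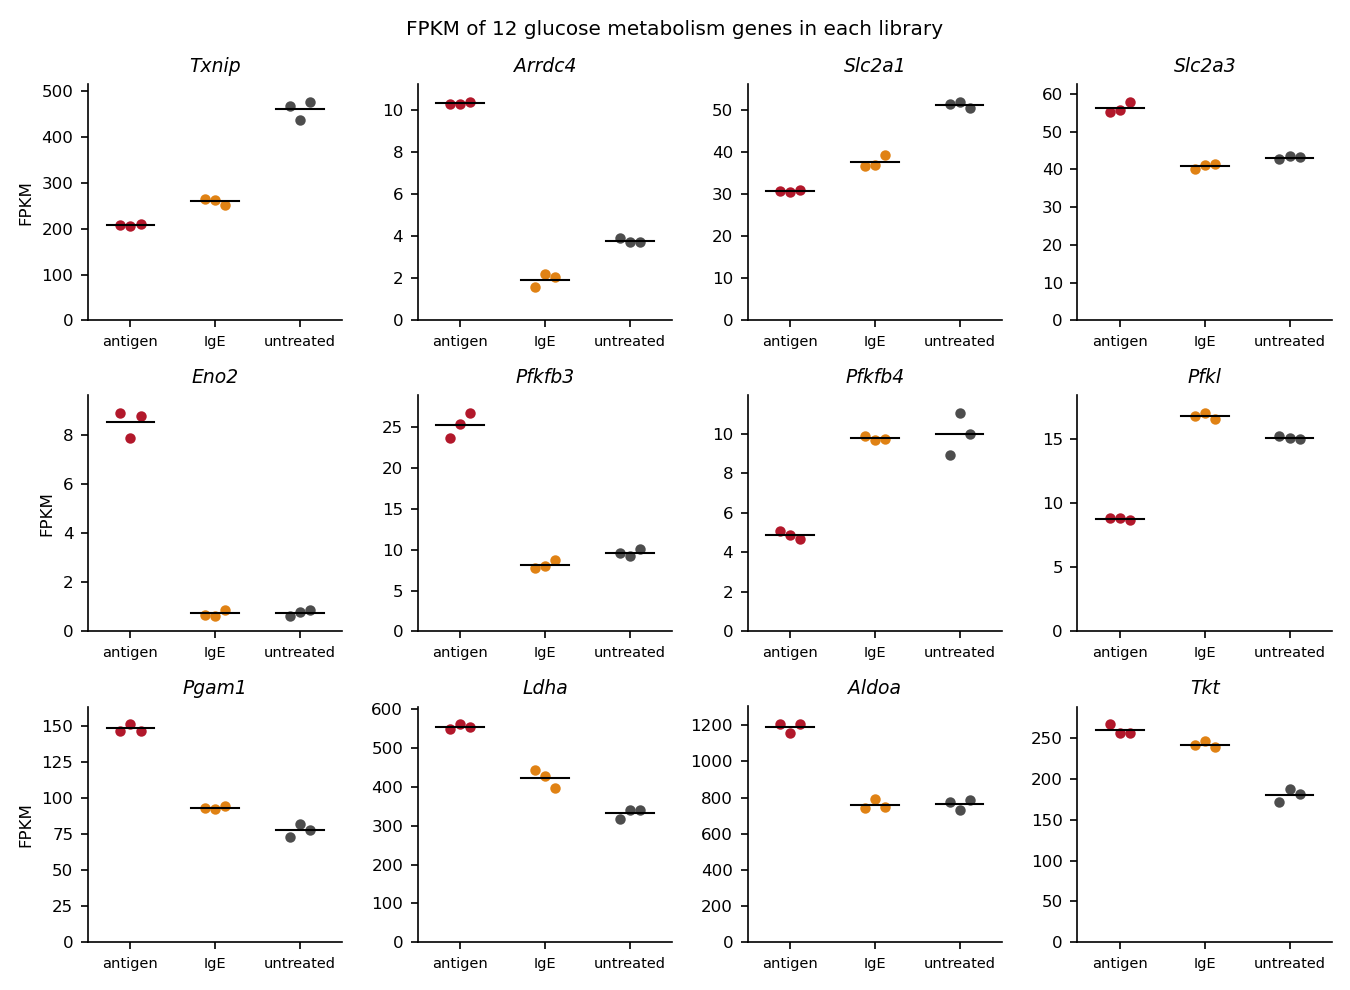
FPKM (linear axes from 0) of 12 members in each library, antigen, IgE and untreated from left to right, with lines at the group means. Points are libraries. Eno2, Arrdc4 and Pfkfb3 are highest with antigen, Pfkl and Pfkfb4 are lowest there, and Txnip and Slc2a1 are lowest with antigen, between with IgE and highest in untreated libraries.

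Lower glycolysis, the steps that yield ATP and pyruvate, rose with antigen in all 6 members as deposited, with a median log2 change of 0.45. After quantile normalization Gapdh and Pkm turned, and Eno1 and Pgk1 lost the call. Eno2 had 8.88, 7.86 and 8.75 FPKM in antigen libraries, 0.681, 0.642 and 0.862 FPKM in IgE libraries and 0.625, 0.780 and 0.884 FPKM in untreated libraries. Antigen values stood above all others (log2 2.46, SE 0.0776). Since the filter let Eno2 in only through the antigen libraries, the adjusted p given is that of the fit with no filter (limma adjusted p = 5.39e-08), and IgE and untreated values overlapped (limma adjusted p = 0.812). Eno1, the general enolase, had 184, 163 and 169 FPKM in antigen libraries, 114, 126 and 135 FPKM in IgE libraries and 111, 122 and 109.6 FPKM in untreated libraries, and rose less (log2 0.45, SE 0.0703, limma adjusted p = 0.000172). Eno2 still made up only 4.60, 4.61 and 4.93% in antigen libraries, 0.592, 0.507 and 0.633% in IgE libraries and 0.561, 0.636 and 0.800% in untreated libraries. Pgam1, phosphoglycerate mutase, had 147, 151 and 147 FPKM in antigen libraries, 93.3, 92.2 and 94.6 FPKM in IgE libraries and 73.4, 82.0 and 78.1 FPKM in untreated libraries. It rose at both steps without overlap (log2 0.66, SE 0.0435, limma adjusted p = 2.30e-07 for antigen versus IgE, and log2 0.26, SE 0.0435, limma adjusted p = 0.00178 for IgE versus untreated), and both calls held under every scaling and with any 1 library left out.

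Gapdh, Pgk1 and Pkm, the enzymes around the 2 ATP-yielding steps, were abundant and higher at both steps as deposited. Gapdh was at 409.5 to 420.3 FPKM in antigen, 347 to 369.8 in IgE and 255 to 293 in untreated libraries. Pkm, the pyruvate kinase of most tissues, was at 520.0 to 556 FPKM in antigen, 445 to 502 in IgE and 365 to 386 in untreated libraries. Pgk1, phosphoglycerate kinase, had 147 and 148 FPKM in the 2 usable antigen libraries, 114, 112 and 98.6 in IgE and 76.5, 83.8 and 84.7 in untreated libraries. The IgE step was called for all 3 under every scaling (log2 0.39, limma adjusted p = 0.000731 for Gapdh, log2 0.33, limma adjusted p = 0.00162 for Pkm and log2 0.40, limma adjusted p = 0.00165 for Pgk1). The antigen step (log2 0.21, limma adjusted p = 0.00562 for Gapdh, log2 0.20, limma adjusted p = 0.00729 for Pkm and log2 0.45, limma adjusted p = 0.000246 for Pgk1) turned to -0.18 for Gapdh and -0.14 for Pkm after quantile normalization, and to 0.12 for Pgk1, and was 0.02 for Gapdh and Pkm with equal totals. Eno1 did not pass the IgE step (limma adjusted p = 0.182), and its antigen step was 0.10 after quantile normalization (limma adjusted p = 0.255). Gapdh, Aldoa, Ldha, Pkm, Eno1, Tpi1, Pgk1 and Pgam1 have processed pseudogenes, and how reads shared with such copies were counted is not known, so their levels are uncertain.

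Genes of lactate production and export rose at both steps as deposited. Ldha, the lactate dehydrogenase subunit that favours lactate, had 548, 561 and 552 FPKM in antigen libraries, 442, 428 and 395 FPKM in IgE libraries and 318, 340.1 and 339.8 FPKM in untreated libraries. The rise with IgE (log2 0.34, SE 0.0523, limma adjusted p = 0.00116) held under every scaling and with any 1 library left out, and that with antigen (log2 0.39, SE 0.0523, limma adjusted p = 5.46e-05) fell to 0.05 after quantile normalization. Ldhb, the subunit of oxidative tissues, was at most 0.126 FPKM in any library and was under the filter of 1 FPKM. Slc16a1 encodes the lactate carrier MCT1 and Slc16a3 encodes MCT4, the carrier of highly glycolytic cells. Slc16a1 had 3.87, 3.89 and 3.59 FPKM in antigen libraries, 2.88, 2.64 and 2.66 FPKM in IgE libraries and 1.73, 1.75 and 1.58 FPKM in untreated libraries. It rose in 2 steps without overlap (log2 0.36, SE 0.0567, limma adjusted p = 0.000198 for antigen versus IgE, and log2 0.47, SE 0.0567, limma adjusted p = 0.000295 for IgE versus untreated), to 2.24 times the untreated level, and kept both calls under every scaling and with any 1 library left out, although it was too low for the filter at 5 FPKM and neither step was 1.5-fold on the log2(FPKM + 1) scale. Slc16a3 was at 18.0 to 19.5 FPKM in antigen, 14.9 to 16.0 in IgE and 13.0 to 13.8 in untreated libraries, higher at each step (log2 0.26, limma adjusted p = 0.000451, and log2 0.19, limma adjusted p = 0.0103); neither call held with equal FPKM totals (0.08 and 0.16, limma adjusted p = 0.222 and 0.073).

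The pyruvate dehydrogenase kinases, which keep pyruvate out of mitochondria and of which Pdk1 is a HIF target, fell with antigen. Pdk1 had 2.18, 1.90 and 2.01 FPKM in antigen libraries, 3.30, 3.24 and 3.11 FPKM in IgE libraries and 3.49, 3.87 and 3.57 FPKM in untreated libraries, with the antigen libraries lowest (log2 -0.48, SE 0.0576, limma adjusted p = 2.69e-05). Pdk2 had 1.74, 1.84 and 1.75 FPKM in antigen libraries, 2.63, 2.61 and 3.74 FPKM in IgE libraries and 3.80, 2.60 and 3.62 FPKM in untreated libraries; IgE and untreated values overlapped and spread widely, and the antigen values lay below all of them (log2 -0.51, SE 0.126, limma adjusted p = 0.00387). Pdk3, the most abundant of the 3, had 31.8 and 31.3 FPKM in the 2 usable antigen libraries, 35.3, 35.9 and 32.9 in IgE and 33.8, 35.6 and 35.9 in untreated libraries. Its small fall (log2 -0.13, limma adjusted p = 0.0372) was lost without untreated replicate 3, IgE replicate 1 or 2, or antigen replicate 1 or 2 (limma adjusted p = 0.0509 to 0.145). None of the 3 passed the IgE step (limma adjusted p = 0.0961, 0.498 and 0.819).

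The pentose phosphate enzymes were higher in cells given IgE alone, without antigen, than in untreated cells. G6pdx and Pgd, the 2 dehydrogenases that make NADPH, and Tkt and Taldo1, which recycle pentoses into glycolysis, were all called higher with IgE alone. Tkt had 267, 256 and 256 FPKM in antigen libraries, 241, 246 and 238 FPKM in IgE libraries and 171, 187 and 181 FPKM in untreated libraries, and rose with IgE (log2 0.43, SE 0.0435, limma adjusted p = 0.000121), while its antigen step did not pass (log2 0.10, limma adjusted p = 0.0532). Pgd had 69.6, 73.6 and 73.8 FPKM in antigen libraries, 56.7, 54.4 and 68.5 FPKM in IgE libraries and 42.6, 45.5 and 43.3 FPKM in untreated libraries. IgE replicate 3 was high for Pgd, and the IgE rise (log2 0.43, SE 0.0745, limma adjusted p = 0.00207) was 0.34 on the log2 scale and still called without it. Taldo1 was at 425 to 436 FPKM in antigen, 322 to 366 in IgE and 294 to 307 in untreated libraries and rose with IgE (log2 0.20, limma adjusted p = 0.0164), a call lost without untreated replicate 1 or IgE replicate 1 or 2 (limma adjusted p = 0.0523 to 0.0628). G6pdx had 77.0 and 75.6 FPKM in the 2 usable antigen libraries, 68.9, 69.9 and 70.2 in IgE and 61.4, 60.9 and 64.2 in untreated libraries, and its IgE rise was 0.16 (limma adjusted p = 0.00970). That call was lost after quantile normalization (log2 0.11, limma adjusted p = 0.0718) and with equal FPKM totals (log2 0.12, limma adjusted p = 0.0652).

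With antigen, Pgd, Taldo1 and G6pdx rose further (log2 0.28, limma adjusted p = 0.00648, log2 0.32, limma adjusted p = 0.000250 and log2 0.13, limma adjusted p = 0.0157), but quantile normalization turned Taldo1 to -0.08, G6pdx to -0.11 and Tkt to -0.19, and left Pgd at 0.04. Equal FPKM totals turned G6pdx to -0.07 and Tkt to -0.08. The G6pdx call was also lost without antigen replicate 1 (limma adjusted p = 0.088). The 4 enzymes summed to 849 and 839.9 FPKM in the 2 antigen libraries with all values, 698.6 to 736 in IgE and 569 to 600.3 in untreated libraries.

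**Figure D4:**
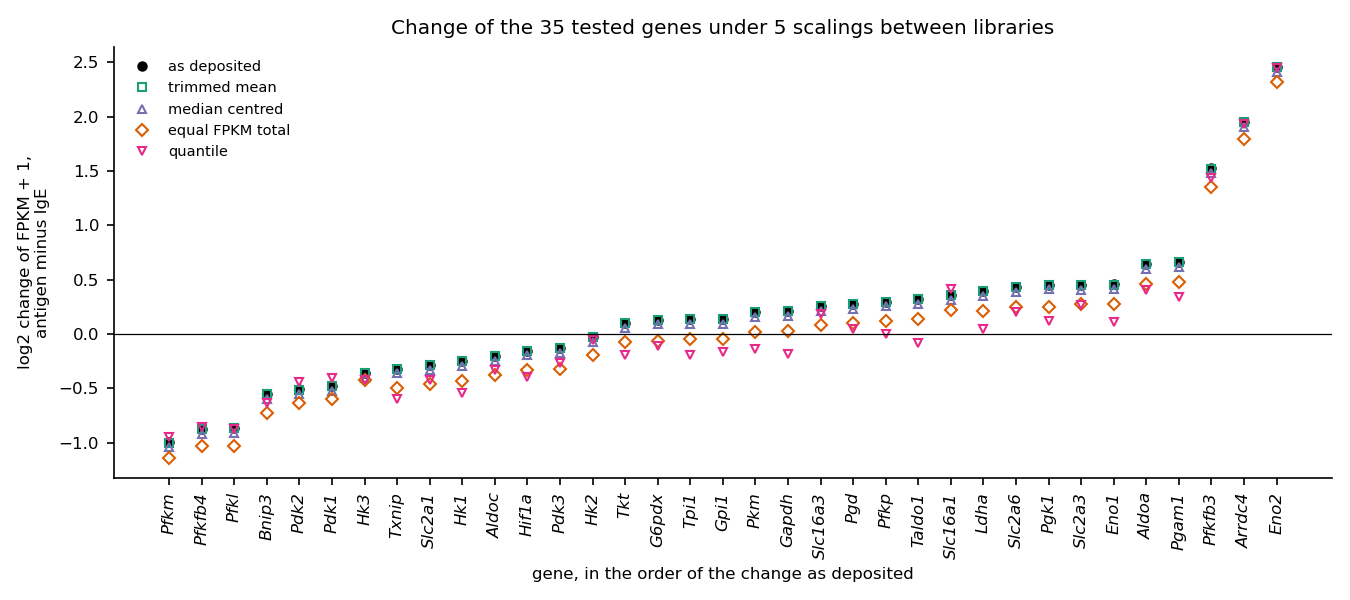
Log2 change of each tested member in antigen versus IgE as deposited and under the 4 other scalings of the libraries, 1 column per member in the order of the change as deposited. The 8 members at the ends, among them Eno2, whose direction the filter fixed, keep their side of 0 in every scaling shown. Gpi1, Tpi1, Gapdh, Pkm, G6pdx, Tkt, Taldo1 and Pfkp cross to the other side after quantile normalization.

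The counts in the pathways around these genes stand beside the 73.8% of all tested genes that antigen changed (37.6% higher and 36.2% lower), and a share near that says nothing of a list. Of 12 tested genes from a list of 29 other genes of glycolysis and glucose transport, 1 rose and 6 fell in antigen versus IgE (58.3% called). The rise, of Bsg (log2 0.10, limma adjusted p = 0.0483), went as low as -0.21 under the other scalings. The 6 include Slc16a7, at 0.534 to 0.651 FPKM in antigen libraries and at least 1.32 in all others. It was thus tested only because it was high outside the antigen group. The genes with the smallest p in that list all fell: Galm, aldose mutarotase, to 3.34 to 3.85 FPKM in antigen libraries, against 8.55 to 9.39 in IgE libraries (log2 -1.14, limma adjusted p = 2.37e-08), Bpgm, which diverts glycolysis to 2,3-bisphosphoglycerate (log2 -1.04), and Slc2a9, a urate transporter (log2 -0.62). Of 13 further genes of the pentose phosphate pathway and NADPH supply, 1 rose and 11 fell (92.3% called). Tktl1 is counted among the 11, although it reached the filter of 1 FPKM only in the untreated libraries (1.02 to 1.47 FPKM, against 0.485 to 0.785 with IgE). Rpia, ribose-5-phosphate isomerase, had 26.1, 26.3 and 26.9 FPKM in antigen libraries, against 41.9, 42.9 and 40.7 in IgE libraries (log2 -0.64, limma adjusted p = 6.63e-08). H6pd, the dehydrogenase of the endoplasmic reticulum, also fell (log2 -0.99), and Me1, the cytosolic malic enzyme, was the gene that rose (log2 0.90). With IgE alone 7 of these 13 had risen and 1 had fallen, beside 15.9% and 14.2% of all genes. The 1 that had fallen was Tktl1, whose direction the filter fixed. In antigen versus IgE, the directions of Galm, Bpgm, Slc2a9, Rpia, H6pd and Me1 held under all scalings.

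Mitochondrial fuel entry was mixed. Of 11 genes of pyruvate entry, 2 rose and 4 fell with antigen (54.5% called), among them the pyruvate dehydrogenase phosphatases Pdp1, which was higher (log2 0.66, limma adjusted p = 1.34e-05), and Pdp2, which was lower (log2 -0.77, limma adjusted p = 3.00e-08), and Pcx, pyruvate carboxylase, which was lower (log2 -0.52). Of 18 genes of the TCA cycle, 5 rose and 6 fell (61.1% called), counts that became 1 and 12 after quantile normalization. Dlst, of 2-oxoglutarate dehydrogenase, rose (log2 0.61), and Idh3a and Idh2, isocitrate dehydrogenases, fell (log2 -0.40 and -0.47). Idh3a had risen with IgE alone (log2 0.41) and was level between antigen and untreated libraries (limma adjusted p = 0.890). Of 15 genes of glycogen and hexosamine metabolism, 2 rose and 8 fell (66.7% called), with the glycogen enzymes Pygb and Gys1 lower (log2 -0.65 and -0.73) and Gfpt2, which starts hexosamine synthesis, higher (log2 0.99).

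Genes linked to the regulators moved in both directions. Of 18 tested genes of the hypoxia pathway, 9 rose and 4 fell with antigen (72.2% called, close to the share of all genes). Ndrg1, a stress-induced gene, had 531, 506 and 513 FPKM in antigen libraries, against 67.9, 68.1 and 66.4 in IgE libraries (log2 2.92, SE 0.0411, limma adjusted p = 4.56e-12). Ero1l, the oxidase of the endoplasmic reticulum, rose by 1.66 and Vegfa, the angiogenic growth factor, by 1.36 on the log2 scale. Of the HIF targets named, Pdk1, Bnip3 and Slc2a1 were lower and Vegfa and Ndrg1 higher in the same libraries. A part of HIF in these changes was not tested. With IgE alone, 1 of the 18 rose and 6 fell, beside 15.9% and 14.2% of all genes. In the list of MondoA partners, arrestins and thioredoxin genes, all 9 tested passed, 4 upwards and 5 downwards. Txnrd1, thioredoxin reductase, had 189.8, 189 and 187 FPKM in antigen libraries, against 77.2, 77.5 and 74.5 in IgE libraries (log2 1.29, SE 0.0341, limma adjusted p = 2.26e-10). The beta-arrestins went apart, with Arrb1 higher (log2 0.96, limma adjusted p = 3.23e-09) and Arrb2 lower (log2 -0.88, limma adjusted p = 3.57e-08). Mlxip, which encodes MondoA and was picked after its values were seen, had 8.96, 10.4 and 9.86 FPKM in antigen libraries, against 3.91, 3.93 and 5.09 in IgE libraries (log2 1.02, SE 0.0973, limma adjusted p = 4.23e-06). Mlx, of the same list, was lower (log2 -0.32, limma adjusted p = 0.000157). Arrdc1, Arrdc2 and Arrdc3 were lower too (log2 -0.51, -0.25 and -0.16). A part of MondoA in the change of Arrdc4 was not tested.

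**Figure D5:**
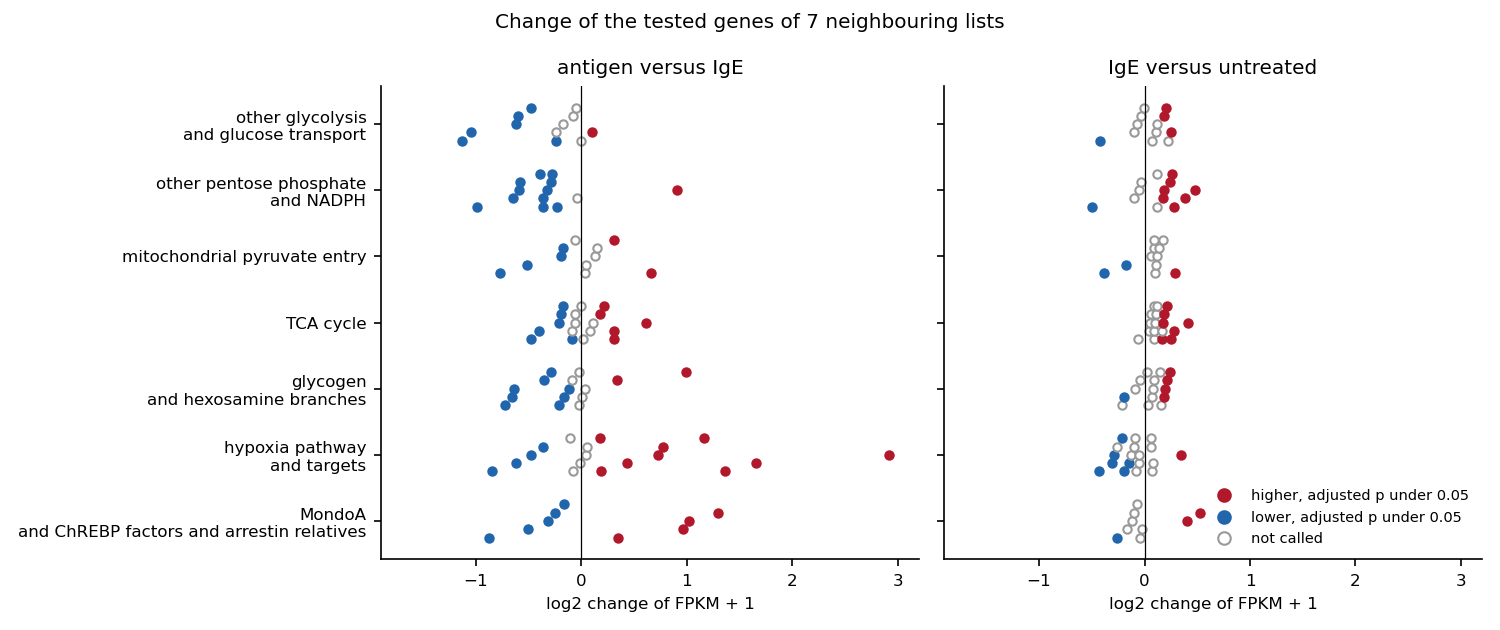
Log2 change (log2(FPKM + 1) scale) of each tested gene of the 7 neighbouring lists in antigen versus IgE (left) and IgE versus untreated libraries (right), 1 point per gene, red where called higher, blue where called lower and open where not called. In the antigen panel, 11 of the 13 other pentose phosphate and NADPH genes lie to the left as called falls. Among them is Tktl1, which passed the filter only through the untreated libraries. Ndrg1 is the point farthest to the right, at 2.92.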

How the data were processed

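RNA of bone marrow-derived mast cells was measured in 9 libraries, grouped by the titles of the samples, with columns matched to samples by name. Values are FPKM made by the authors and used as deposited. TopHat2 2.0.12 and Bowtie 0.12.7 were run on the mm9 genome, per the submitters' processing notes. Which program computed FPKM, with which annotation and whether by strand, is not given in the sources used here, so reads of overlapping antisense genes, and of pseudogene copies, may not be separated.

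The 10890 genes that reached 1 FPKM in 3 or more libraries were tested with limma 3.58.1 (R 4.3.3) after adding 1 to FPKM and taking log2, which understates changes of low genes, with an intensity trend, all 9 libraries in 1 fit and Benjamini-Hochberg adjustment over all tested genes. X- and Y-linked zeros of antigen replicate 3 were treated as missing (chromosomes by symbol from RefSeq GRCm38.p6, 135 symbols unmatched). Folds of single genes are ratios of mean FPKM, while the 1.5-fold threshold was set on the change of log2(FPKM + 1). No label says that replicates came from separate cultures, so the p-values reflect the spread of these samples only, and that spread may be technical. Depth was estimated from the steps of values up to 0.2 FPKM in 2966 genes with a single transcript over 1000 bases (GENCODE M21), where 54.3% to 63.7% of the values lay within 0.1 read of a whole number (20% by chance), and the precision it gives covers counting error only.

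The members and lists were chosen with earlier results of these data known. All 36 members are named, and of each other list the called genes with the 3 smallest adjusted p in antigen versus IgE. The fit was tested on simulated data. Alternatives covered the pseudocount, filter, scaling, prior, libraries in the fit, replicate block, X and Y zeros, a 1.5-fold threshold and each library left out. Equal FPKM totals, the fit without both IgE replicate 3 and antigen replicate 3 and the paired E-box were added after seeing the data. So was the naming of Mlxip, Mlx, Arrdc1, Arrdc2, Arrdc3, Tktl1, Slc16a7 and Bsg.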

Additional observations from a re-analysis of the deposited data

How the results depend on the processing

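Over 2298 alternative values of the 35 tested members in the 3 comparisons, 2152 kept direction and call, 85 lost the call, 23 gained it and 38 changed sign. Arrdc4, Pdk1, Pdk2, Pgam1, Slc16a1, Slc2a1, Slc2a6 and Txnip kept direction and call in every setting judged by the adjusted p alone in which they were tested (with Hk3, the members Pdk1, Pdk2 and Slc16a1 were under the filter at 5 FPKM), and the cause of the changes in the others was not tested. In antigen versus IgE, 20 members higher and 13 lower became 9 and 20 after quantile normalization and 13 and 14 with equal FPKM totals. They became 5 and 3 at a threshold of 1.5-fold on the log2(FPKM + 1) scale, where Slc2a1, Slc2a6, Pdk1, Pdk2, Slc16a1 and Txnip were lost. In antigen versus untreated, 21 and 11 became 14 and 16 after quantile normalization and 18 and 14 with equal FPKM totals. The 1.5-fold threshold gave 0 higher and 2 lower in IgE versus untreated, against 14 and 5, and 11 higher in antigen versus untreated, against 21. Leaving out 1 library at a time gave 17 to 20 higher and 12 to 13 lower in antigen versus IgE, and 21 higher throughout and 10 to 12 lower in antigen versus untreated. In IgE versus untreated it gave 12 to 14 higher and 3 to 5 lower, with 3 without untreated replicate 1, untreated replicate 3 or IgE replicate 2.

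Quantile normalization changed the sign of log2 values in antigen versus IgE for Gpi1 (-0.17), Pfkp (-0.0052), Tpi1 (-0.19), Gapdh (-0.18), Pkm (-0.14), G6pdx (-0.11), Tkt (-0.19) and Taldo1 (-0.082), in antigen versus untreated for Gpi1 (-0.15), Pfkp (-0.19) and G6pdx (-0.0030), and in IgE versus untreated for Eno2 (0.046). Equal FPKM totals did so in antigen versus IgE for Gpi1 (-0.043), Tpi1 (-0.049), G6pdx (-0.068) and Tkt (-0.079), and in antigen versus untreated for Pfkp (-0.049). With the X zeros as deposited, Pgk1 was at -1.96 (limma adjusted p = 0.324) and G6pdx at -1.96 (limma adjusted p = 0.258) in antigen versus IgE, and at -1.56 and -1.80 in antigen versus untreated, none of them called. Trimmed mean scaling put Aldoa at 0.0068 in IgE versus untreated.

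Values near 0 that were not called changed sign when libraries were left out. Hk2 in antigen versus IgE ranged from -0.066 to 0.013 and was 0.033 without IgE replicate 3 and antigen replicate 3. In IgE versus untreated, Pfkm ranged from -0.021 to 0.091, Pfkfb4 from -0.093 to 0.047, Aldoa from -0.040 to 0.013, Eno2 from -0.086 to 0.021, Pdk3 from -0.042 to 0.022 and Hif1a from -0.058 to 0.0093. Without IgE replicate 3 and antigen replicate 3, Aldoa was at 0.0033, Pdk3 at 0.022 and Hif1a at 0.0093. Whether the replicate numbers pair the samples is not known. Deviations from the group means had r from -0.331 to 0.35 in the 9 same-numbered pairs, 2 of them over 0.1. With 3 libraries a group, these values cannot decide it. With a replicate block the members numbered 19 higher and 13 lower in antigen versus IgE, 13 and 5 in IgE versus untreated and 21 and 11 in antigen versus untreated. At the estimated depth, the lowest tested members, Eno2 outside the antigen libraries, Hk3, Arrdc4, Slc16a1, Pdk1 and Pdk2, carry the largest counting error.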
